A study of Mus musculus with 6 samples.

Results

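The Fc gamma receptors of the mouse and the signaling chain behind them were followed here as 10 of the 20140 genes listed for each liver. The 10 genes were found by their symbols: the activating receptors Fcgr1, Fcgr3 and Fcgr4, the inhibitory receptor Fcgr2b, the neonatal receptor Fcgrt, the adaptors Fcer1g and Tyrobp, the kinases Syk and Btk, and the phospholipase Plcg2. RNA of whole liver was sequenced on day 21 in 3 groups of 2 livers. The sham livers are labelled as controls that received PBS in place of cells. Both other groups received CT26 cells, a colorectal carcinoma line of BALB/c mice, and are labelled only intra-C and intra-S. From the models of the study they were read as implantation into the cecum (intra-C), in which the liver on day 21 served as the premetastatic niche, and as injection into the spleen (intra-S), which seeds metastases in the liver. The study used BALB/c mice for its CT26 models, of 6 to 10 weeks of age, and the labels add no sex and no genetic change. Every liver was taken as a mixture of all its cells, so that more cells of a type and more RNA per cell cannot be told apart. CT26 cells in an intra-S liver would be part of the same library.

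Fc gamma receptors bind the constant part of IgG and bring immune complexes and coated particles to myeloid cells. The activating receptors carry no signaling motif of their own and pair with Fcer1g, the common gamma chain, whose immunoreceptor tyrosine-based activation motif (ITAM) is phosphorylated by Src family kinases. The phosphorylated ITAM recruits Syk, which acts through adaptors, Btk and Plcg2 on calcium, phagocytosis and the oxidative burst. Tyrobp (DAP12) carries the same kind of motif for other receptors of myeloid and NK cells. Fcgr2b instead carries an inhibitory motif (ITIM) that recruits the phosphatase SHIP1, and in the liver it is known for the sinusoidal endothelium, where it clears small immune complexes. Fcgrt (FcRn) does not signal in this way but returns IgG and albumin from endosomes to the blood.

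The motifs that divide these genes into activating and inhibitory are short and can be read from their coding sequence (GENCODE M21, GRCm38). They are shown because the balance between the receptors that pair with Fcer1g and Fcgr2b is one of the values compared here. In both ITAM sequences the codons of the paired tyrosines and of the leucine after each are in capitals, with 7 codons between the units. In the ITIM sequence the codons of the isoleucine, the tyrosine and the leucine are in capitals. The Fcer1g stretch covers codons 65 to 79 of 86 (minus strand, chr1:171229889-171230072) and the Tyrobp stretch codons 92 to 106 of 114 (plus strand, chr7:30415670-30417382), and each was joined across an intron. The Fcgr2b stretch covers codons 317 to 322 of 340 in 1 exon (minus strand, chr1:170961071-170961088).
Fcer1g ITAM: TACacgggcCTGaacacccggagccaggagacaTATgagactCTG
Tyrobp ITAM: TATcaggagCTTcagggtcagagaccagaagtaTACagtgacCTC
Fcgr2b ITIM: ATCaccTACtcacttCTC

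The promoters of the activating receptors are shown because 2 of these receptors had the lowest adjusted p-values of the group, and that of Fcgr2b for comparison. RefSeq promoters of GRCm38.p6, from 250 bases before to 50 bases after the start of transcription, were matched for 9 of the 10 genes (11 promoters). GAGGAA, the core bound by the myeloid factor PU.1, was searched on both strands and is in capitals, where TTCCTC is the same core on the other strand. It lies in 28.3% of all 32851 promoters of this length and in 6 of these 11. In Fcgr1 it starts at position -55, in Fcgr3 at -6 and in Fcgr4 at -22 (the first transcribed base is 0), and each of these is TTCCTC on the strand of the gene. The 2 promoters of Fcgr3 start 9 bases apart and share this site, so that by gene the core is in 5 of 9. It is also in promoters of Btk and Syk, and no match was found in those of Fcgr2b, Fcgrt, Fcer1g and Plcg2. TTGCNNAA, a C/EBP core, is in 10.8% of all promoters and in those of Fcgr3 and Fcgrt. A further pattern that was searched, TTCNNNGAA (GAS), is in 8.3% of all promoters and in 1 of these 11, that of Fcgr1 at position -109. A match of letters is a description, and binding was not measured here.
Fcgr1 promoter (minus strand, chr3:96293920-96294219): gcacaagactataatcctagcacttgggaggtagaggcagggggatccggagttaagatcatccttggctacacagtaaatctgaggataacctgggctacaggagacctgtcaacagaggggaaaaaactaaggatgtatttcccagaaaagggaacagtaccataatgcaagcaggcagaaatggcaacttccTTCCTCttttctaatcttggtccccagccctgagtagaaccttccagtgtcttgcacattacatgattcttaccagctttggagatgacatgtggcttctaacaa
Fcgr3 promoter (minus strand, chr1:171059354-171059653): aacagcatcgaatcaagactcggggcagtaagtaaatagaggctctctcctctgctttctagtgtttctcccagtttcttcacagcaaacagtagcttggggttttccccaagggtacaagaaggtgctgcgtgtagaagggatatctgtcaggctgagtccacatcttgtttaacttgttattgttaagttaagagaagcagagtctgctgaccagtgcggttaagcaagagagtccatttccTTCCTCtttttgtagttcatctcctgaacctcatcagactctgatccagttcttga
Fcgr4 promoter (plus strand, chr1:171018676-171018975): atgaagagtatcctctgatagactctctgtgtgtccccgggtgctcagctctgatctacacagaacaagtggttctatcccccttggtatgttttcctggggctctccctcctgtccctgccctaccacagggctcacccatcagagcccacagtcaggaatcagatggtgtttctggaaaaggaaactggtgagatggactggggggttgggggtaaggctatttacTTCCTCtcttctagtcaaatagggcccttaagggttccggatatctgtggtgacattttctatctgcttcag
Fcgr2b promoter (minus strand, chr1:170976022-170976321): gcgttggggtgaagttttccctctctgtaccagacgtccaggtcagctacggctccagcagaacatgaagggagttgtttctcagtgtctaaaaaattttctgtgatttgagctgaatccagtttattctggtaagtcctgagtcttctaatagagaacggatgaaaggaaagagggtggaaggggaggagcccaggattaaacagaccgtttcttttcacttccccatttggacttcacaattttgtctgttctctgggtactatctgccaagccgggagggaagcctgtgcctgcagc

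Depth was alike, with 32838321 to 43368309 counts per liver, and the limit of 3 counts behind a count of 0 lay between 0.0679 and 0.0928 CPM (counts scaled to the TMM-normalized library size; counting error only). All 10 genes passed the filter on low counts that left 16370 genes, and none had fewer than 24 counts in any liver. The intra-S livers were the least alike pair over all genes (chi-square of 337 per degree of freedom, against 73.1 within intra-C and 24.8 within sham). Genes were called at an adjusted p-value under 0.05 in edgeR's quasi-likelihood test.

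Between sham and tumor-bearing mice, 6 of the 10 genes rose in both groups and none fell: Fcgr3, Fcgr4, Fcer1g, Tyrobp, Syk and Plcg2. Of all tested genes, 4.92% were called higher and 2.38% lower in intra-C livers (7.3% in all), and 6.78% and 3.95% in intra-S livers (10.7% in all). The 4 genes not called were Fcgr1, Fcgr2b, Btk and Fcgrt. The median log2 fold change of the 10 genes was 2.02 in intra-C and 2.25 in intra-S livers, against 0.01 and 0.04 over all tested genes. In CPM the livers did not overlap with sham for 9 genes in intra-C, all of them higher, where 34.4% of all genes were higher without overlap. In intra-S livers 9 genes were higher without overlap, against 30.4% of all genes, and Fcgrt was lower without overlap, as were 30% of all genes. On the deposited TPM scale 8 genes were higher without overlap in each group (26.4% and 20.5% of all genes) and Fcgrt was lower in each (43.3% and 43.7% of all genes), since Btk overlapped with sham in intra-C and Fcgr1 in intra-S livers. Both comparisons use the same 2 sham livers. The 6 calls held in each of 10 other analyses of all livers or of the groups compared, with adjusted p-values up to 0.0394 in intra-C and 0.0427 in intra-S livers. Their sizes depended on the scale: in limma on log2(TPM + 1) the log2 changes of the 6 genes ran from 1.17 to 2.56 in intra-C and from 1.03 to 2.58 in intra-S livers. Plcg2 moved the most there, from 2.86 to 1.26 and from 2.95 to 1.26, and Syk from 2.01 to 1.17 and from 1.93 to 1.03. They did not hold without either sham liver: without sham replicate 1 the adjusted p-values of the 6 genes ran from 0.0958 to 0.155 (intra-C) and 0.071 to 0.109 (intra-S), and without sham replicate 2 from 0.0985 to 0.192 and from 0.0698 to 0.121. Their log2 changes then ran from 1.93 to 3.21 (intra-C) and 1.85 to 3.29 (intra-S) without sham replicate 1, and from 1.74 to 3.23 and 2.03 to 3.36 without sham replicate 2. Without intra-C replicate 1 or 2, Fcgr3 and Fcgr4 were the only genes of the group called in intra-C livers.

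**Figure D1:**
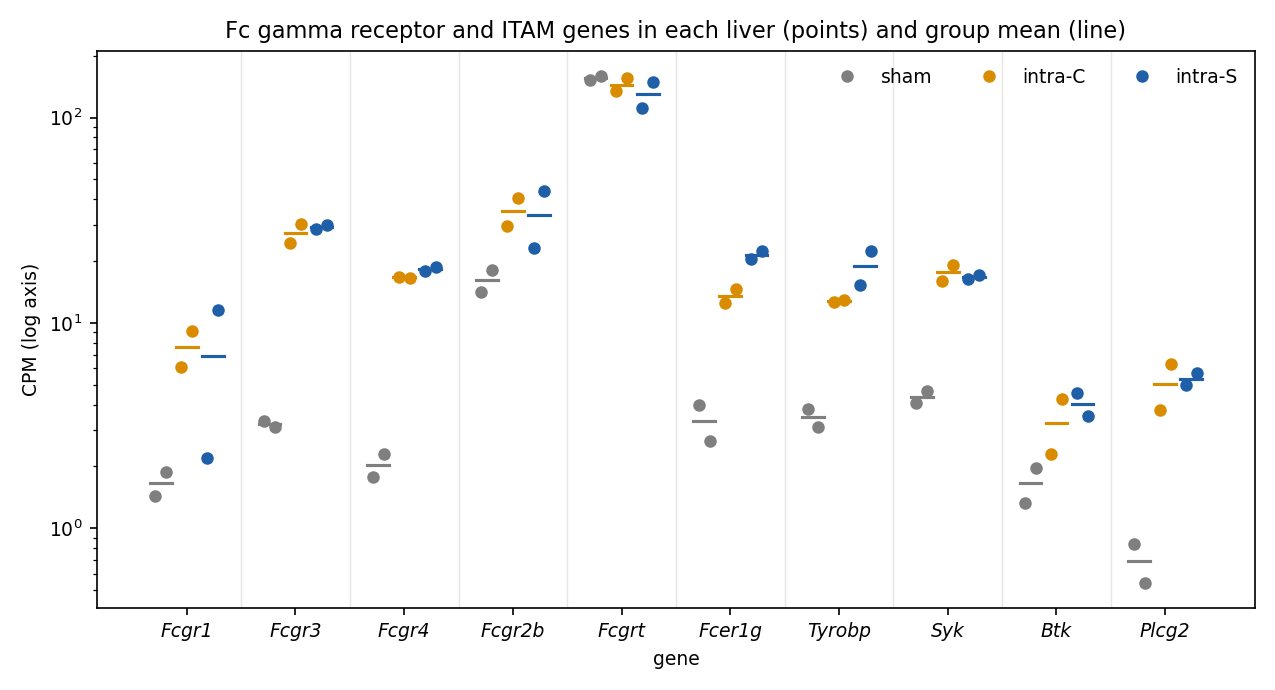
CPM of the 10 genes (log axis) in each liver, with points for livers and lines for group means. For Fcgr3, Fcgr4, Fcer1g, Tyrobp, Syk and Plcg2 every tumor-group liver sits above both sham livers, and Fcgr1 and Fcgr2b of intra-S replicate 1 sit closer to sham than those of replicate 2.

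Among the activating receptors, Fcgr3 and Fcgr4 rose the most and varied little between livers of a group. Fcgr3, a low-affinity receptor of macrophages, neutrophils and NK cells (chromosome 1, 171051169 to 171065915), had 3.33 and 3.12 CPM in the sham livers, at 24.4 and 30.3 CPM in intra-C and at 28.7 and 30.1 CPM in intra-S livers. All 4 tumor-group livers lay far above sham and close to each other. The change was 3.08 ± 0.21 (log2, SE) in intra-C (8.47-fold, adjusted p = 0.00543) and 3.19 ± 0.22 in intra-S livers (9.11-fold, adjusted p = 0.00443). These adjusted p-values are the lowest of all tested genes in their comparisons, and other genes share them. Fcgr4, a receptor for IgG2a and IgG2b on neutrophils, monocytes and macrophages (chromosome 1, 171018926 to 171029761), had 1.77 and 2.29 CPM in the sham livers. It reached 16.8 and 16.6 CPM in intra-C and 17.9 and 18.7 CPM in intra-S livers, again with no overlap. Its log2 change was 3.04 ± 0.24 (8.21-fold, adjusted p = 0.0058) and 3.17 ± 0.24 (8.99-fold, adjusted p = 0.00466).

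Fcgr1, the high-affinity receptor of monocytes and macrophages (chromosome 3, 96282909 to 96293969), was less even. It stood at 1.43 and 1.88 CPM in sham, at 6.11 and 9.13 CPM in intra-C and at 2.19 and 11.5 CPM in intra-S livers. The 2 intra-S livers differed 5.27-fold, and replicate 1 was just above the sham livers in CPM. In TPM it lay between them, at 1.49 against 1.24 and 1.63 in sham, while intra-S replicate 2 was at 8.43 and the intra-C livers were at 4.51 and 7.19. The log2 change was 2.20 ± 0.74 in intra-C (adjusted p = 0.122) and 2.05 ± 0.74 in intra-S livers (adjusted p = 0.123), and neither was called. Without intra-S replicate 1 it was called in both (2.20, adjusted p = 0.00262, and 2.80, adjusted p = 0.00222), and without intra-S replicate 2 the intra-S value was 0.40 (adjusted p = 0.462) while intra-C was called (adjusted p = 0.00372). The fit of the intra-C and sham livers alone also called it in intra-C (2.20, adjusted p = 0.00449), and DESeq2 called it in both comparisons (adjusted p = 0.0206 and 0.0295).

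The inhibitory receptor Fcgr2b (chromosome 1, 170960558 to 170976071) was the most abundant of the 4 Fc gamma receptors per length in every liver, in TPM (transcripts scaled by length and library). Its CPM were 14.2 and 18.2 in sham, 29.6 and 40.8 in intra-C and 23.1 and 44.1 in intra-S livers. The tumor-group livers did not overlap with sham, but again intra-S replicate 1 was the lowest of the tumor-group livers. The log2 changes of 1.12 ± 0.35 (2.17-fold, adjusted p = 0.105) and 1.06 ± 0.35 (2.08-fold, adjusted p = 0.104) were not called. Their 95% intervals ran from 0.28 to 1.97 and from 0.21 to 1.90. Without intra-S replicate 1 Fcgr2b was called in both comparisons (1.12, adjusted p = 0.0081, and 1.45, adjusted p = 0.00781). It was also called in intra-C livers without intra-S replicate 2 (adjusted p = 0.00904), with the intra-C and sham livers alone (adjusted p = 0.0101) and with DESeq2 (adjusted p = 0.0423).

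The make-up of the receptor transcripts was therefore compared within each liver in TPM. Fcgr2b took 74.6% and 76.4% of the 4 receptors' TPM in the sham livers, 44.1% and 49.2% in intra-C and 37.4% and 48.9% in intra-S livers. Fcgr4 took 11.6% and 11.9% in sham and 24.8% to 35.8% in the tumor groups. For Fcgr3 the shares were 9.33% and 6.99% in sham and 17.8% to 24.7% in the tumor groups. Fcgr1 took 4.50% and 4.72% in sham, 5.45% and 6.58% in intra-C and 2.11% and 7.64% in intra-S livers, and its intra-S shares lay on both sides of sham. The summed TPM of all 4 receptors was 27.6 and 34.5 in sham, 82.7 and 109 in intra-C and 70.7 and 110 in intra-S livers.

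The ratio of activating (Fcgr1, Fcgr3 and Fcgr4) to inhibitory receptor TPM was 0.340 and 0.309 in the sham livers. It was 1.27 and 1.03 in intra-C and 1.67 and 1.04 in intra-S livers, so that activating receptors outnumbered Fcgr2b in each tumor-group liver and in neither sham liver. The means were 0.325 ± 0.0222 in sham, 1.15 ± 0.163 in intra-C (3.54-fold) and 1.36 ± 0.446 in intra-S livers (4.19-fold; SD, n = 2 each). The exact permutation test (two-sided) gave p = 0.33 for both, the smallest value that 2 against 2 livers allow. Fcgr3 shares 9.58% of the stretches of 50 bases in its transcripts with Fcgr2b, and 2.54% of those of 100 bases, so that some reads of this pair could not be assigned to 1 gene. With Fcgr3 left out, the mean ratio was 0.216 in sham, 0.732 in intra-C and 0.847 in intra-S livers. The other 8 genes shared no such stretch with any gene. An antisense gene covers 2.68% of the exon bases of Fcgr2b. The kit named in the labels does not mark strand, so reads of that gene there cannot be told apart from those of Fcgr2b.

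**Figure D2:**
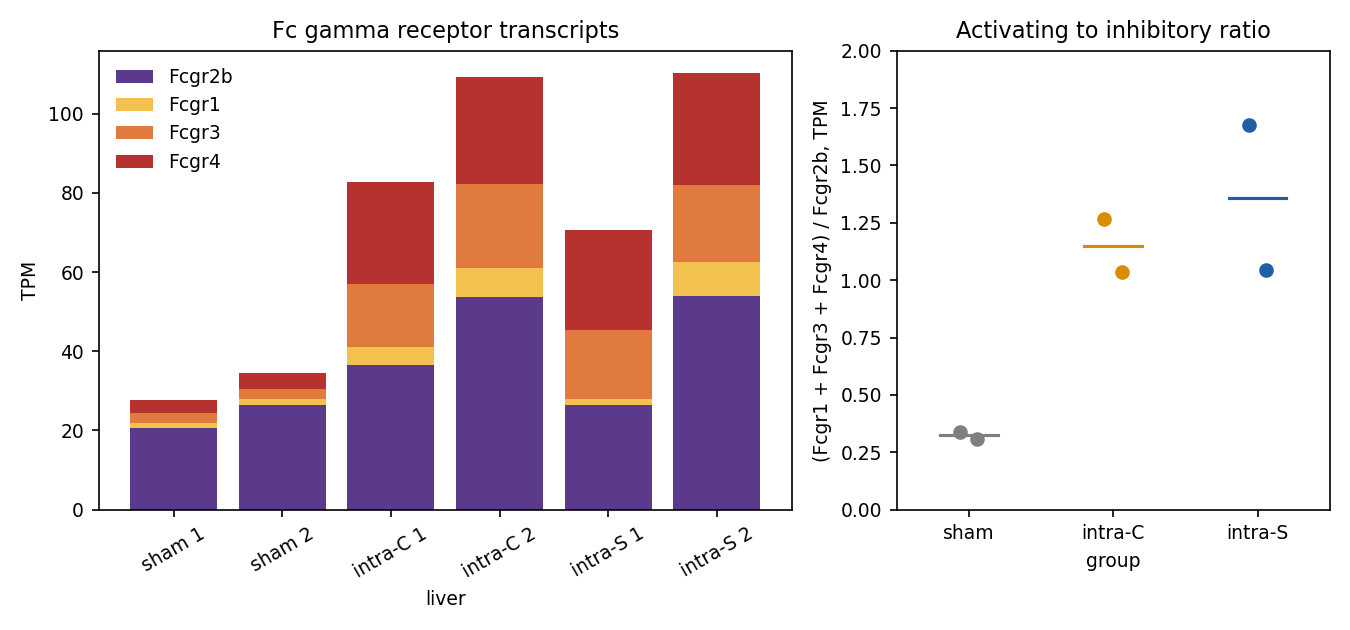
Left, TPM of the 4 Fc gamma receptors stacked for each liver; right, the ratio of summed activating receptor TPM to Fcgr2b TPM (points are livers, lines are group means). The ratio was 0.309 and 0.340 in the sham livers and between 1.03 and 1.67 in the tumor groups.

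Fcgrt, in contrast, kept the highest level of the 10 genes in TPM in every liver. It was at 153 and 159 CPM in sham, 134 and 155 CPM in intra-C and 111 and 149 CPM in intra-S livers (chromosome 7, 45092993 to 45103822). In CPM the intra-C livers overlapped with sham, and both intra-S livers were below it. In TPM every tumor-group liver was below sham, with 197 and 204 in sham, 147 and 181 in intra-C and 113 and 162 in intra-S livers. The log2 changes were -0.11 (95% interval -0.64 to 0.43, adjusted p = 0.788) and -0.26 (-0.79 to 0.28, adjusted p = 0.474). In limma on log2(TPM + 1) they were -0.30 (adjusted p = 0.427) and -0.57 (adjusted p = 0.146), and not called either. Its partner B2m, the light chain it needs, and its cargo Alb were not called either. B2m was at 1297 and 1287 CPM in sham, 1159 and 1032 CPM in intra-C and 1456 and 1343 CPM in intra-S livers.

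Both ITAM adaptors rose in both groups. Fcer1g (chromosome 1, 171229572 to 171234349) was at 3.99 and 2.65 CPM in sham, at 12.5 and 14.7 CPM in intra-C and at 20.4 and 22.5 CPM in intra-S livers. The livers of the 3 groups did not overlap, but the difference between intra-S and intra-C was not called (edgeR, adjusted p = 0.36). Of all genes, 21.9% were higher in intra-S than in intra-C livers without overlap. The log2 change was 2.03 ± 0.27 in intra-C (4.09-fold, adjusted p = 0.0149) and 2.69 ± 0.28 in intra-S livers (6.46-fold, adjusted p = 0.00658). Tyrobp (chromosome 7, 30413782 to 30417582) went from 3.82 and 3.10 CPM in sham to 12.6 and 13.0 CPM in intra-C and 15.3 and 22.4 CPM in intra-S livers. Its change was 1.89 ± 0.27 (3.70-fold, adjusted p = 0.0176) and 2.45 ± 0.28 (5.45-fold, adjusted p = 0.00782).

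The adaptors kept a near equal level per length. The ratio of Tyrobp to Fcer1g TPM was 1.09 and 1.34 in sham, 1.16 and 1.01 in intra-C and 0.859 and 1.14 in intra-S livers, and all groups overlapped. The ratio of Fcer1g to the activating receptors that use it was 1.95 and 1.11 in sham, 0.784 and 0.819 in intra-C and 1.24 and 1.15 in intra-S livers. It was lowest in the intra-C livers, which overlapped with neither other group (exact permutation p = 0.33 for each, the smallest possible).

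Of the enzymes behind the adaptors, Syk and Plcg2 rose and Btk was not called. Syk (chromosome 13, 52582610 to 52648792) had 4.09 and 4.64 CPM in sham, 16.1 and 19.2 CPM in intra-C and 16.3 and 17.1 CPM in intra-S livers. Its log2 change was 2.01 ± 0.22 (4.03-fold, adjusted p = 0.00873) and 1.93 ± 0.22 (3.82-fold, adjusted p = 0.00782), with no overlap. Plcg2, which makes the second messengers of calcium release (chromosome 8, 117498275 to 117635142), was the lowest of the 10 genes in sham, at 0.838 and 0.543 CPM (34 and 24 counts). It was at 3.77 and 6.31 CPM in intra-C and 4.96 and 5.72 CPM in intra-S livers, a change of 2.86 ± 0.42 (7.28-fold, adjusted p = 0.0177) and 2.95 ± 0.42 (7.72-fold, adjusted p = 0.0137). Btk, the TEC family kinase that phosphorylates Plcg2 (chromosome X, 134542334 to 134583628), was at 1.33 and 1.97 CPM in sham, 2.29 and 4.24 CPM in intra-C and 4.55 and 3.53 CPM in intra-S livers. Each tumor-group liver was above sham in CPM, yet the changes of 0.98 ± 0.43 (adjusted p = 0.203) and 1.29 ± 0.43 (adjusted p = 0.105) were not called. Without intra-S replicate 2 the intra-S value was 1.46 and called (adjusted p = 0.0488).

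**Figure D3:**
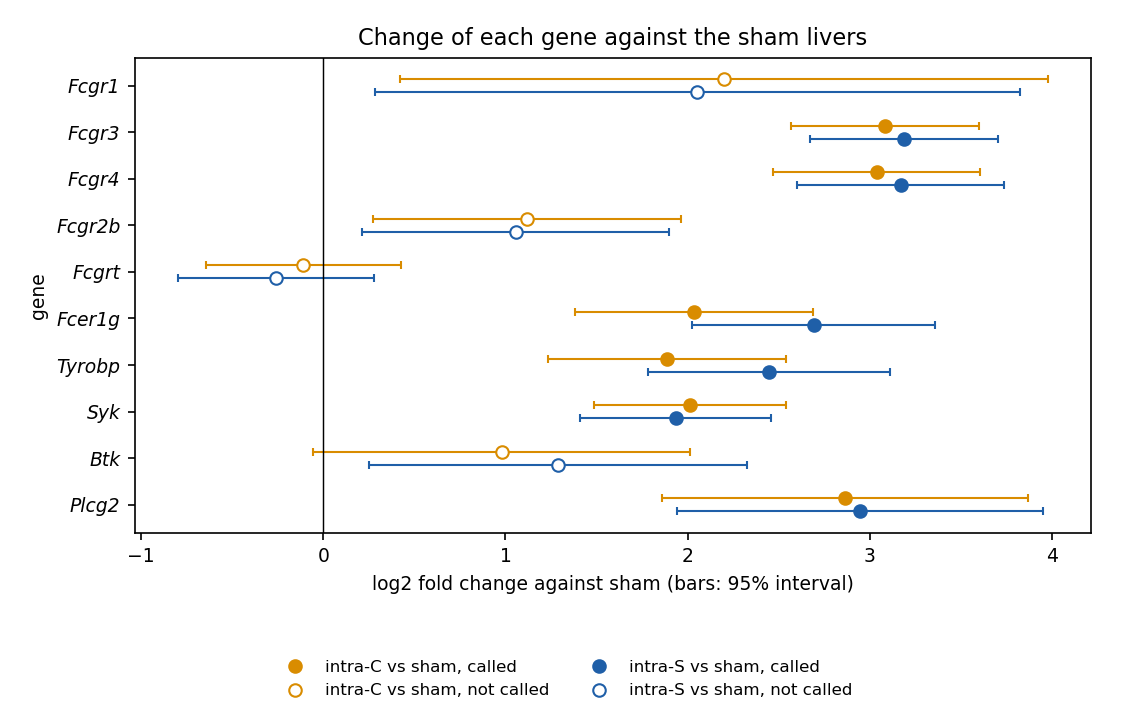
Log2 fold change of each gene against the sham livers with its 95% interval, filled where called. Fcgr3 and Fcgr4 have the largest changes, the intervals of Fcgr1 are the widest, and that of Fcgrt spans 0 in both comparisons.

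Between the intra-S and intra-C livers none of the 10 genes was called, and neither was any of the 16370 genes (edgeR, lowest adjusted p = 0.113), although 1144 higher and 1049 lower genes had an unadjusted p under 0.05. By DESeq2, 506 genes and none of these 10 were called. Of the 10 genes, Fcer1g alone had an unadjusted p under 0.05 (0.0412, adjusted p = 0.36), with a log2 difference of 0.66 ± 0.26 (1.58-fold higher in intra-S). In CPM, Fcgr4, Fcer1g and Tyrobp were higher in intra-S without overlap, where 21.9% of all genes were. In TPM Fcer1g and Tyrobp were (17.1% of all genes), and Fcgr4 overlapped, at 25.6 and 27.1 in intra-C and 25.3 and 28.3 in intra-S livers. For Fcgr3 the difference was 0.10 (95% interval -0.37 to 0.57), for Fcgr4 0.13 (-0.38 to 0.65) and for Syk -0.08 (-0.58 to 0.42). The interval for Fcgr1 was far wider, from -1.82 to 1.53. Without intra-S replicate 2, which left the low replicate alone, Fcgr1 was called lower in intra-S (-1.80, adjusted p = 0.0255).

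Markers of the myeloid and endothelial cells that carry Fc gamma receptors were read beside these genes. Neutrophil markers, led by S100a9, summed to 4.14 and 5.66 CPM in sham and to 354 to 1136 CPM in the tumor groups, and 13 of 14 rose in intra-C and 14 of 14 in intra-S livers. Of this list, Mpo, Elane and Camp were at 0 in both sham livers, and other members made up the sham sums. The paper places Camp among the genes of early neutrophils. Monocyte and macrophage markers, led by Lyz2, summed to 74.9 and 81.6 CPM in sham and 336 to 476 CPM in the tumor groups (5 of 9 rose in both). Kupffer cell markers, led by Clec4f and in intra-C by Cd5l, summed to 159 and 151 CPM in sham, 774 and 942 CPM in intra-C and 438 and 870 CPM in intra-S livers, and 6 and 5 of 7 rose. The neutrophil sum was instead higher in intra-S replicate 1 than in replicate 2 (1136 against 491 CPM). Sinusoidal endothelium markers, led by Clec4g and in intra-S by Stab2, summed to 127 and 137 CPM in sham and 245 to 406 CPM in the tumor groups, with 4 of 9 called higher in both. This sum, too, was higher in intra-S replicate 1 (406 CPM) than in replicate 2 (245 CPM). The part of these cells in the receptor values was not tested.

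Markers of 6 other cell types were counted in the same fit. Of the B and plasma cell markers 0 of 8 were called in either comparison, with Sdc1, which hepatocytes also express, as most of the sum of 243 to 571 CPM. Among T and NK cell markers 0 of 5 tested were called (2.17 to 6.33 CPM in all, led by Cd4). Mast cell and basophil markers, led by Mcpt8, summed to at most 1.11 CPM and 0 of 2 tested were called. Dendritic cell markers, led by Zbtb46 in sham and Clec9a in the tumor groups, had 1 of 7 called higher in each comparison (6.36 to 15.4 CPM). Erythroid markers, led by Hbb-bs, had 0 of 6 called in intra-C and 5 of 6 higher in intra-S livers (206 to 363 CPM in sham, 1077 and 1533 CPM in intra-S). Of the hepatocyte markers, led by Alb, 1 of 7 fell in intra-C and 1 of 7 rose in intra-S livers. Of the lists with 0 calls (edgeR), an unadjusted p under 0.05 was found for 2 B and plasma cell and 1 erythroid marker in intra-C, for 1 T and NK cell marker in intra-S, and for both tested mast cell and basophil markers in each.

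The genes around the receptors were taken from 14 lists of the pathway, with 167 further genes, of which 147 were listed and 141 tested. In intra-C livers 50 of the 141 rose (35.5%) and 0 fell, and in intra-S livers 47 rose (33.3%) and 1 fell. Their median log2 fold changes were 1.32 and 1.44. Without either sham liver 0 were called, without intra-C replicates 1 and 2 in turn 4 and 3 were called in intra-C livers and 31 and 25 in intra-S livers, and with the 2 groups compared alone 77 and 21. Without intra-S replicates 1 and 2 in turn 81 and 79 were called in intra-C and 67 in intra-S livers each time. Between intra-S and intra-C livers 0 were called (edgeR), with 7 at an unadjusted p under 0.05 and 5 by DESeq2.

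On the ligand side, all 3 chains of C1q, the complement protein that binds IgG in immune complexes and is made by macrophages, rose in both groups. C1qa was at 33.1 and 35.9 CPM in sham, 123 and 124 CPM in intra-C and 117 and 165 CPM in intra-S livers (log2 change 1.84 and 2.03). C1qb changed by 2.28 and 2.38 and C1qc by 2.14 and 2.44. Of the immunoglobulin constant genes and Jchain, Jchain alone was tested and not called, and most of these genes are not listed in the table. Among 7 further Fc receptors tested, 0 were called in intra-C and 1 in intra-S livers: Pigr, the carrier of IgA into bile, fell by 1.53 ± 0.22 on the log2 scale (adjusted p = 0.0141). Pigr was at 1053 and 1083 CPM in sham, 697 and 800 CPM in intra-C and 406 and 332 CPM in intra-S livers, in which it was the only gene of the 14 lists to fall. In the fit of the intra-S and sham livers alone, 0 of 135 tested pathway genes were called lower.

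Of the receptors that pair with Fcer1g or Tyrobp or carry a single ITAM unit, 11 of 29 rose in each group, with medians of 2.12 and 2.17. Csf2rb, the common beta chain of cytokine receptors that can signal with Fcer1g, went from 2.12 and 2.54 CPM in sham to 33.0 and 41.2 CPM in intra-C and 25.0 and 30.1 CPM in intra-S livers (log2 change 3.99 and 3.56). Clec4n (Dectin-2), a receptor for fungal mannans, changed by 2.77 and 3.22. Trem2, a lipid receptor that signals through Tyrobp, was at 0.296 and 0.136 CPM in sham and at 1.81 and 2.67 CPM in intra-S livers (log2 change 3.37, adjusted p = 0.0231), and its change in intra-C livers was 3.00 (adjusted p = 0.0371). Pira2 rose in both groups (3.93 and 3.41). Lilra5 rose in intra-C livers (2.21), with 1.58 in intra-S livers (adjusted p = 0.0845, not called). Clec4d rose in intra-S livers (3.56), with 3.00 in intra-C livers (adjusted p = 0.0823, not called).

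Of the list of receptors with an ITIM and their relatives, 10 of 21 rose in each group, with medians of 2.07 and 2.20. Cd300lf was at 0.542 and 0.543 CPM in sham, 13.9 and 13.2 CPM in intra-C and 19.9 and 12.4 CPM in intra-S livers (log2 change 4.64 and 4.89, adjusted p = 0.00543 and 0.00443). Pirb, an inhibitory receptor for MHC class I, changed by 2.41 and 2.28, and Siglece, a receptor for sialic acid, by 2.55 and 2.22. Clec4a3 (2.40 and 2.00), Clec4a2 (2.27 and 2.92), Clec4a1 (2.12 and 2.49) and Lilrb4a (2.24 and 2.43) rose in both groups as well. Of these, Clec4a1 and Clec4a3 are counted as relatives of Clec4a2, and an ITIM in them was not looked for here. The antigen receptor chains with ITAMs, from Cd79a to Cd247, were at 6.82 CPM or less in sum and 0 of 6 were called in either group (edgeR, 1 of them at an unadjusted p under 0.05 in each).

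Inside the cell, 5 of 12 Src family kinases and regulators rose in intra-C and 3 of 12 in intra-S livers. Fgr, a myeloid Src kinase, was at 0.985 and 0.430 CPM in sham, 3.18 and 5.07 CPM in intra-C and 3.59 and 4.44 CPM in intra-S livers (log2 change 2.54 and 2.50). Ptprc (CD45), the phosphatase that readies Src kinases, changed by 2.30 and 1.82. Ptprj, another such phosphatase, changed by 1.30 in intra-C livers (adjusted p = 0.0494) and had 0.59 in intra-S livers (adjusted p = 0.228, not called). Of the adaptors and exchange factors 9 of 15 rose in intra-C and 6 of 15 in intra-S livers. Lcp2 (SLP-76), which holds Plcg2 near its kinases, changed by 2.17 and 2.24, Dock2, an activator of Rac, by 2.64 and 2.32, Vav3, another, by 3.56 and 3.57, and Gab2, a docking protein for PI3-kinase, by 2.69 and 3.22. None of the 5 other SYK and TEC family kinases was called (edgeR), with 1 of them at an unadjusted p under 0.05 in each comparison, Bmx, which was at 0 and 0.0226 CPM in sham.

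Further down, lipid signaling genes had 3 of 15 called higher in intra-C and 4 of 15 in intra-S livers. Pik3r5, a regulatory subunit of PI3-kinase gamma, changed by 3.22 and 2.64, and Prkcb, a protein kinase C, by 2.28 and 2.14. Pik3ap1 rose by 0.98 in intra-C livers. It was at 49.2 and 53.1 CPM in sham, 93.9 and 108 CPM in intra-C and 46.0 and 44.3 CPM in intra-S livers, the latter both below sham (log2 change -0.18, adjusted p = 0.559), and the difference between the tumor groups was not called (adjusted p = 0.285). Pik3cg (1.59) and Prkcd (1.54) rose in intra-S livers, and their changes of 1.49 (adjusted p = 0.0674) and 0.96 (adjusted p = 0.109) in intra-C livers were not called. In the CARD9 arm, Card9, which carries signals from Syk to NF-kB, changed by 2.41 and 2.36 (1 of 6 called in intra-C), and Bcl10, its partner, by 1.01 in intra-S livers (2 of 6), with 0.60 in intra-C livers (adjusted p = 0.145, not called). All 5 phagosome oxidase genes rose in both groups, with medians of 2.77 and 2.69. Cybb, the catalytic subunit, was at 5.17 and 4.62 CPM in sham, 36.8 and 56.3 CPM in intra-C and 27.3 and 34.0 CPM in intra-S livers (log2 change 3.25 and 2.64). Among the cytosolic subunits, Ncf1 changed by 2.95 and 2.85 and Ncf4 by 2.77 and 3.18.

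Negative regulators rose beside them, 3 of 14 in each group. Inpp5d (SHIP1), the phosphatase recruited by the ITIM of Fcgr2b, was at 2.32 and 2.24 CPM in sham, 6.93 and 8.63 CPM in intra-C and 11.9 and 7.46 CPM in intra-S livers (log2 change 1.77 and 2.08, adjusted p = 0.0302 and 0.0158). Sla, an adaptor that lowers receptor levels, changed by 4.18 and 4.26, and Cbl, a ubiquitin ligase for Syk and its receptors, by 1.66 and 1.20.

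**Figure D4:**
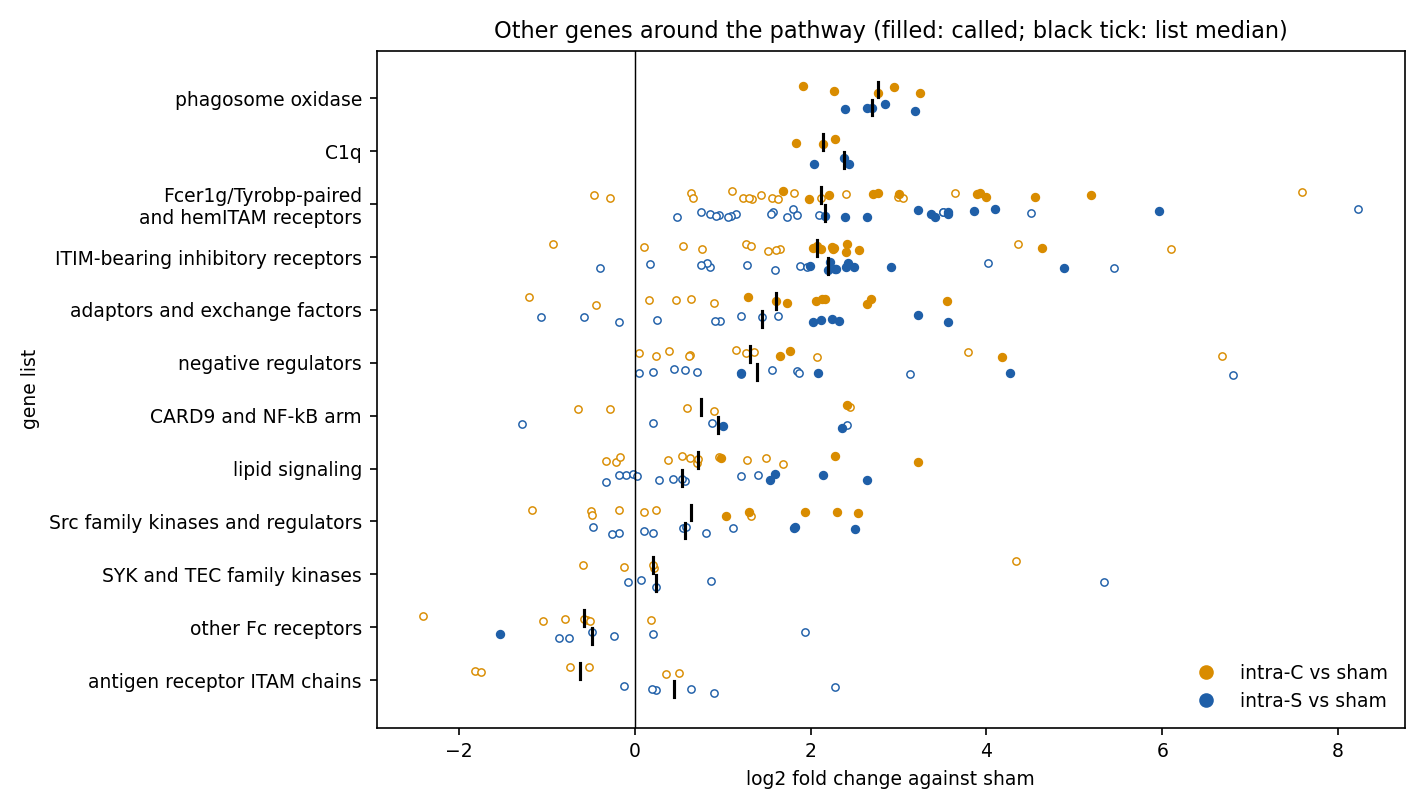
Log2 fold changes against sham of the tested genes in each pathway list with at least 3 of them (points are genes, filled where called; black ticks are list medians). The phagosome oxidase and C1q lists have every gene called higher in both groups, and the antigen receptor chains and other TEC family kinases have none.

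Fcgr2b, Fcgr4, Fcgr3 and Fcer1g lie on 1 stretch of chromosome 1, in this order, with starts 58.4, 90.6 and 269 kb from that of Fcgr2b. Their neighbours up to 100 kb beyond the group were compared in the same fit, 18 tested genes. In intra-C livers 0 of the 18 were called higher and 3 lower, and in intra-S livers 1 higher and 3 lower, with medians of -0.75 and -0.70. Apoa2, a hepatocyte apolipoprotein whose gene lies next to Fcer1g, was at 7303 and 6913 CPM in sham, 2607 and 3018 CPM in intra-C and 2579 and 3757 CPM in intra-S livers. It fell by 1.34 ± 0.27 (adjusted p = 0.0371) and 1.17 ± 0.26 on the log2 scale (adjusted p = 0.0421). Nr1i3, a nuclear receptor of hepatocytes, fell by 1.55 and 1.53, and Tomm40l by 2.23 and 2.24. The neighbour called higher was Adamts4, a protease, in intra-S livers (5.30 ± 0.89, adjusted p = 0.0201, from 0.0493 and 0.158 to 5.13 and 3.43 CPM). These 4 neighbours were named after their values were seen.

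**Figure D5:**
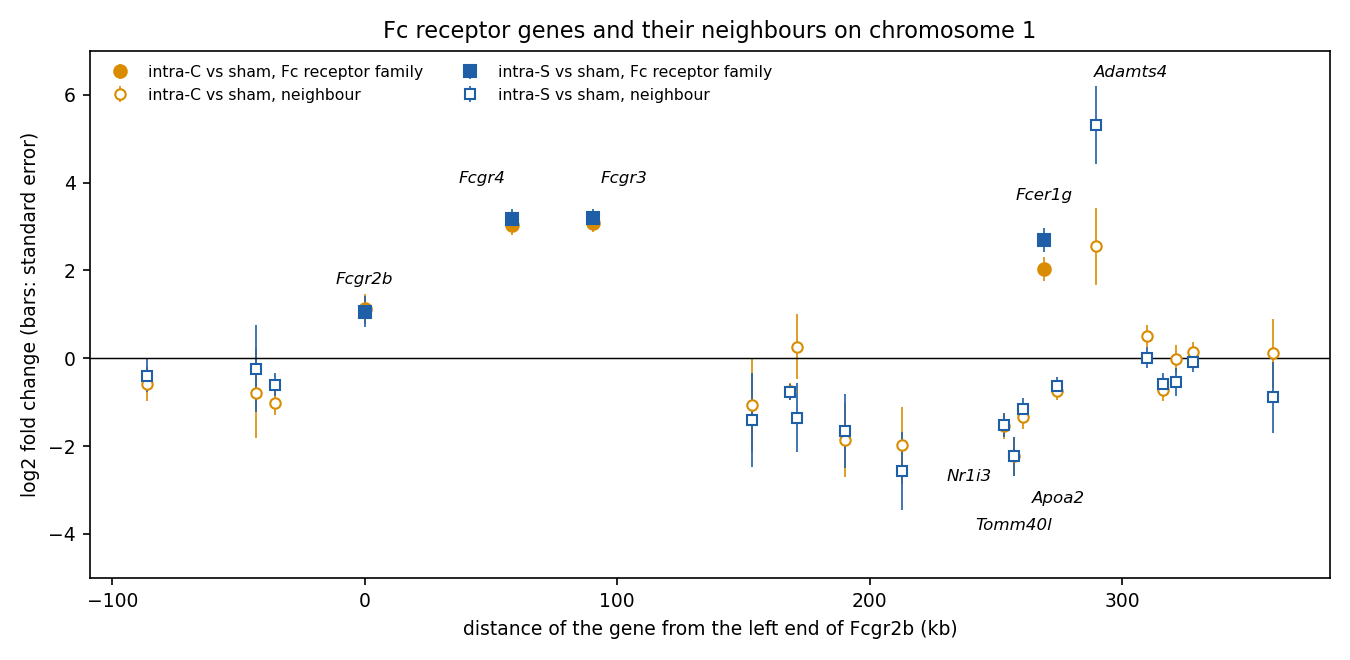
Log2 fold change against sham (bars are standard errors) of the Fc receptor genes (filled) and their tested neighbours (open) by distance from the left end of Fcgr2b in kb. Fcgr4, Fcgr3 and Fcer1g lie at 2.03 or above, and the neighbours' medians are -0.75 and -0.70.

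For 3 of the genes the most similar patterns over the 6 livers were looked up among genes with a mean of at least 5 CPM (Pearson correlation of log2 CPM, a description over 6 livers that share the group differences). For Fcer1g these were Gja1, Maf and Irf8 (r of 0.995, 0.995 and 0.994). Irf8, a factor of monocyte and dendritic cell development, was at 3.87 and 3.30 CPM in sham, 9.60 and 12.4 CPM in intra-C and 13.9 and 14.4 CPM in intra-S livers. Fcgr2b was most like LOC100042019, AI463229 and Ehd4 (r of 0.988, 0.987 and 0.987), each of which was also low in intra-S replicate 1. Ehd4, an endosomal protein, was at 5.30 and 6.61 CPM in sham, 13.2 and 16.0 CPM in intra-C and 7.82 and 18.6 CPM in intra-S livers. For Fcgrt they were Rnaset2b, Ovca2 and Nubpl (r of 0.997, 0.996 and 0.994), which like Fcgrt were lowest in intra-S replicate 1.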

How the data were processed

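The authors made poly(A) libraries from whole liver, aligned the reads to mm10 with HISAT2 2.1.0 and deposited raw read counts per gene from featureCounts (Subread 2.0.6) on uniquely mapped exon reads. They also deposited TPM, computed by the authors from these counts and gene lengths. Annotation and strand setting are not given in the sources used here, nor a test for these genes. The kit named in the labels does not mark strand.

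R 4.3.3 and Python 3.11.15 were used for the rest. Counts were tested with edgeR 4.0.16 (quasi-likelihood, TMM, filterByExpr with a count minimum of 10, 1 fit over 6 livers, no replicate block) and Benjamini-Hochberg adjustment over 16370 genes. SE came from the log2 coefficient and its F statistic. TPM served for ratios and levels between genes. The procedure was run on simulated counts with the same spread in all groups, which cannot show how it behaves with replicate pairs as unequal as these. The labels name the 2 livers of a group biological replicates but give no further origin, so p-values measure the spread between these livers. The 3 groups share 1 estimate of that spread, so the intra-S livers also enter the p-values of intra-C against sham.

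The genes and the 14 pathway and 10 marker lists were chosen with earlier results of these data known. Named were all 10 genes, per pathway list, comparison and direction up to 4 called genes with the largest change and a mean of at least 2 CPM, the most abundant gene of each marker list per group, and the 3 genes most like Fcer1g, Fcgr2b and Fcgrt. Some genes that this rule covers are not reported here. Further genes of the lists are named for context. Alternatives were DESeq2 1.42.0, 2 other filters, a fit per pair of groups, a block for the replicate number, 2 other scalings, a robust spread, limma 3.58.1 on log2(TPM + 1) and log2(TPM + 0.1), CPM ratios, Fcgr3 left out, and each liver left out in turn. Overlap between groups was also counted on the TPM scale and on CPM without TMM, an alternative chosen after seeing the data.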

Additional observations from a re-analysis of the deposited data

How the results depend on the processing

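With 2 livers a group, leaving one out leaves a lone liver that is assumed to vary like the others. In intra-C livers such fits called 0 to 8 of the 10 genes, 0 to 81 pathway genes and 0 to 4658 of all genes, and in intra-S livers 0 to 8, 0 to 67 and 0 to 5693, with 0 throughout without either sham liver. Between intra-S and intra-C they called 0 to 1, 0 to 12 and 0 to 2884. DESeq2 called 2692, 3375 and 506 of all genes in intra-C, intra-S and their direct comparison, where it called 5 pathway genes. Fits on the groups compared alone called 4771 and 392 of all genes and 77 and 21 pathway genes, and limma on log2(TPM + 1) called 27 and 30 pathway genes. The replicate numbers did not pair the livers (correlations of deviations -0.03, 0.08 and 0.04), and no paired relation is given by the labels. With the replicate number as a block, 6 and 6 of the 10 genes, 40 and 46 pathway genes and 932 and 1507 of all genes were called. Library size without TMM moved the median of all genes to -0.25 and -0.23, and 41.5% and 42.9% of calls were higher, against 67.4% and 63.2% with TMM. Under limma on log2(TPM + 1) 35.7% and 30.6% were higher. On CPM the activating to inhibitory ratio was 0.431 in sham, 1.49 in intra-C and 1.74 in intra-S livers. In the same order, the CPM ratio of Fcer1g to activating receptors was 0.487, 0.263 and 0.396. That of Tyrobp to Fcer1g was 1.06, 0.948 and 0.873. In TPM with Fcgr3 left out, the activating to inhibitory ratio was 0.216, 0.732 and 0.847. In each case the cause was not tested.

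Between intra-S and intra-C the sign of 7 uncalled differences turned when 1 liver was left out: over these fits Fcgr1 ran from -1.80 to 0.60, Fcgr2b from -0.61 to 0.33, Fcgr3 from -0.045 to 0.26, Fcgrt from -0.38 to 0.046, Syk from -0.20 to 0.042, Btk from -0.070 to 0.81 and Plcg2 from -0.24 to 0.49. Among them were 0.15 and 0.60 (Fcgr1), 0.17 and 0.33 (Fcgr2b), and -0.24 and -0.022 (Plcg2). Against sham no sign turned in any alternative. With CPM scaled by library size alone, 8 of the 10 genes were higher than sham without overlap in intra-C and 7 in intra-S livers, where Fcgr1 and Fcgr2b overlapped with sham, against 24% and 21.3% of all genes. Fcgrt was lower without overlap in both, as were 46.7% and 42.3% of all genes. Between intra-S and intra-C, Fcer1g and Tyrobp were higher without overlap on this scale (21.4% of all genes).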
